A study of Homo sapiens with 21 samples.

Results

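The 9 genes described here encode transcription factors that are known from pancreatic progenitor cells: SOX9, PTF1A, ONECUT1, ONECUT2, GATA4, GATA6, FOXA2, HES1 and PROX1. They were chosen by symbol, each symbol matched 1 entry of the count table, and they are 9 of the 62699 genes used. All 9 passed the filter on low counts. RNA was sequenced from islet cells grown from H1, an established human embryonic stem cell line, at day 18 of differentiation. The cells were unedited (WT) or carried a knockout labelled ISL1-/-, PAX6-/- or PDX1-/-, and all of them had received a lentivirus on day 11. The lentivirus carried ISL1 linked by IRES2 to the blue fluorescent protein BFP, or BFP alone as the control, and BFP-positive cells were sorted before the RNA was extracted. The 21 libraries fall into 8 groups. BFP alone was given to 2 WT libraries and to 3 of each knockout. ISL1 was given to 3 libraries each of ISL1-/- and PAX6-/- and to 2 each of WT and PDX1-/-. The labels used here give no number of clones behind a knockout, so a genotype and a clone cannot be told apart.

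In the embryo, multipotent pancreatic progenitors are held by a network of these factors before endocrine, duct and acinar cells separate. HES1 is the transcriptional repressor that Notch signalling induces through RBPJ, and it keeps progenitors from switching on the endocrine determinant NEUROG3. SOX9 maintains the progenitor pool and later marks duct cells, PTF1A later drives acinar fate, and ONECUT1 (HNF6) acts upstream of PDX1 and NEUROG3 and stays on in duct cells. GATA4, GATA6 and FOXA2 are factors of the early endoderm, and FOXA2 also stays on in mature islet cells. ONECUT2 is the close relative of ONECUT1, and PROX1 is a homeodomain factor of progenitor and endocrine cells.

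HES1 and ONECUT1 are the members on which most of the results below turn. For HES1 the sequence before its start site is shown because it holds the letters that RBPJ, the DNA-binding partner of Notch, is known to bind. The promoter table of RefSeq (GRCh38.p14) has an entry for 4 of the 9 genes, and the 250 bases before the start of HES1 (plus strand, chr3:194135898-194136147) read as follows, with TGGGAA in capitals.
HES1: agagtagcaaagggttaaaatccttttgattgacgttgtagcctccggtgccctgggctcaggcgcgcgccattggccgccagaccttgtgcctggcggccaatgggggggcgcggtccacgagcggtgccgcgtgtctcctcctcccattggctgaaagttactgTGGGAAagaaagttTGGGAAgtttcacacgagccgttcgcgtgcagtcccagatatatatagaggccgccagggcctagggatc
Searched on both strands, the word TGGGAA starts at -84 and at -70, counted from the start site, and both copies lie on the plus strand. The share of all 35116 promoters in the table that hold this word in the same 250 bases is 20.8%. The word CACNAG, which HES proteins are known to bind, occurs 3 times in the HES1 window and is found in 32.0% of promoters. A match of letters describes the sequence and is no measurement of binding.

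Total counts were from 36.8 to 60.2 M per library (1 M is 1000000 counts), with a median of 50.4 M. The counts of the ISL1 gene did not separate the vectors. They stood at 306 to 519 CPM with BFP in WT and at 338 to 361 CPM with ISL1 in WT, where CPM is counts per 1000000 after TMM scaling. In ISL1-/- the gene was lower, at 71.6 to 96.8 CPM over both vectors (BFP groups, log2 fold change -2.42, SE 0.39, adjusted p = 0.0013 in edgeR's quasi-likelihood test). PAX6 was at 94.9 to 318 CPM in PAX6-/- and PDX1 at 80.5 to 138 CPM in PDX1-/-, and neither passed the test against WT with the same vector (edgeR adjusted p from 0.54 to 0.86). Whole-gene counts do not show edits that leave the transcript in place. Groups are therefore named by their labels, as ISL1-labelled and BFP-labelled.

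Mitochondrial genes took 3.16% of the counts in ISL1-labelled PAX6-/- replicate 3 and 3.84% in ISL1-labelled PDX1-/- replicate 4, against 1.28% to 1.93% in the other 19 libraries. These libraries also stood apart in several of the 9 genes, so results of the 9 genes that rest on them are given with and without them. Tests of the gene lists below are given with all libraries only. Their calls in PDX1-/- and in the mean over genotypes therefore include replicate 4. Without the libraries of high mitochondrial share ISL1-labelled PDX1-/- holds a single library. Values for this group, and its part in means over genotypes, then rest on that library. The RNA is from sorted cells in bulk, and a change in the share of a cell type cannot be told apart from a change in RNA per cell.

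**Figure D1:**
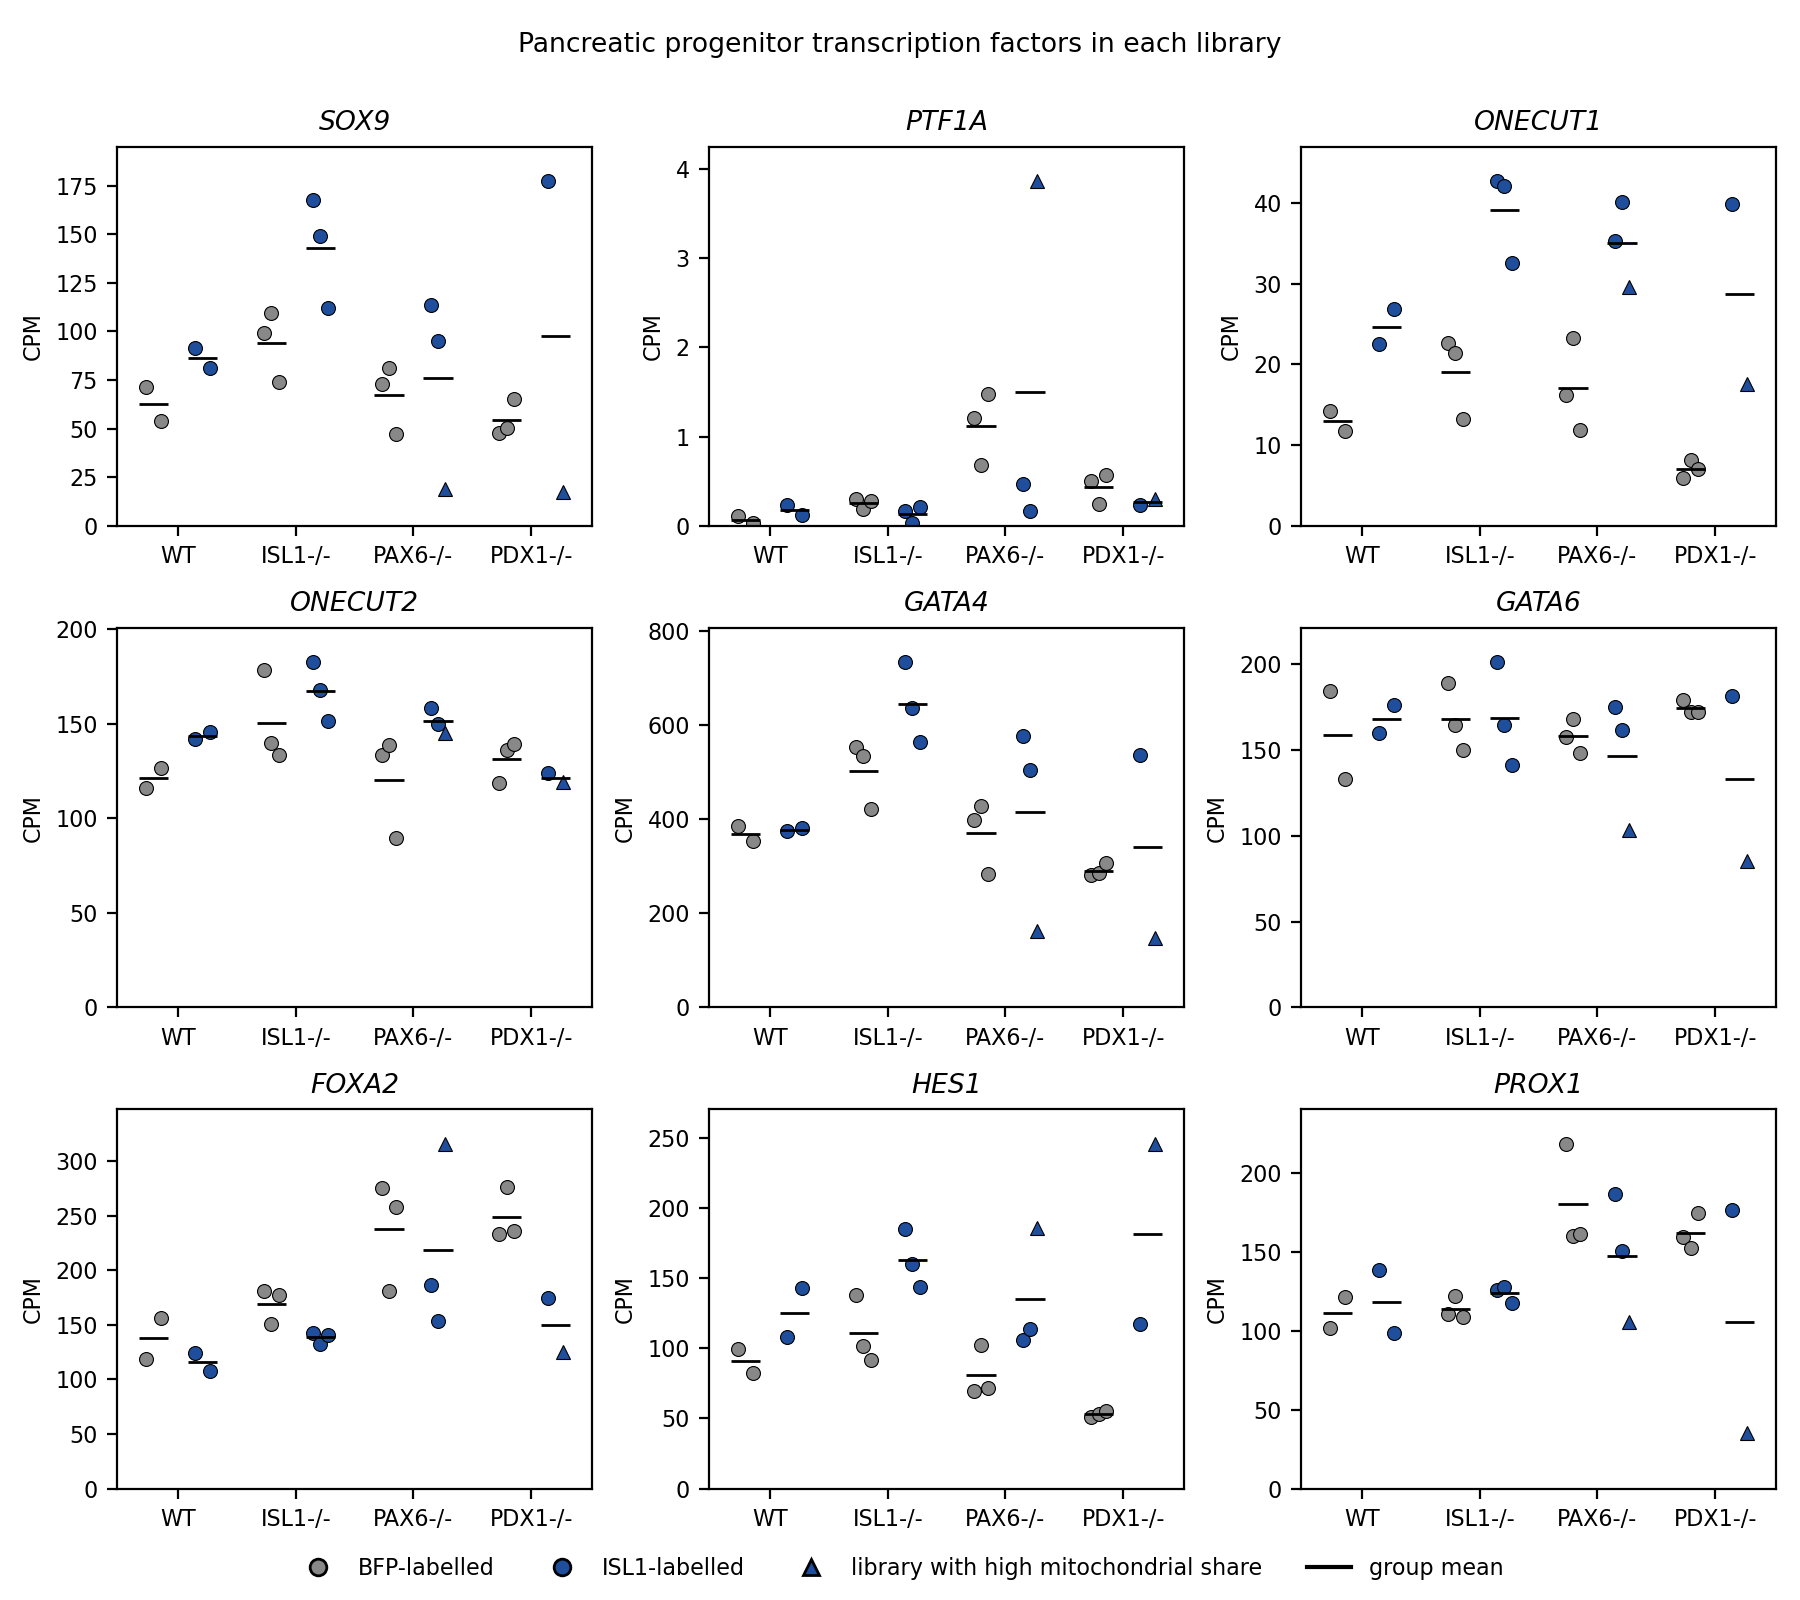
Each panel shows 1 gene, with CPM on a linear axis from 0 and the 8 groups along the horizontal axis. Points are libraries, horizontal lines are group means, grey is BFP-labelled and blue is ISL1-labelled. In ONECUT1 and HES1 every blue point lies above every grey point of the same genotype, and the triangles, the libraries of high mitochondrial share, lie lowest of all 21 in SOX9, GATA4 and GATA6.

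Per kilobase of exon the genes spanned a wide range of levels. The median over the 21 libraries was highest for GATA4, at 89.7 CPM per kb, followed by FOXA2 at 64.0, HES1 at 51.6 and GATA6 at 43.4 CPM per kb. SOX9 had 20.6, PROX1 14.3, ONECUT2 8.43 and ONECUT1 3.68 CPM per kb. PTF1A had 0.153 CPM per kb, from 1 to 184 counts per library with a median of 13, so its values are limited by counting.

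A test of any difference among the 8 groups passed for 4 of the 9 genes at an adjusted p under 0.05, against 22.5% of the 25884 genes tested. These were ONECUT1 (edgeR adjusted p = 0.00035), HES1 (0.0039), PTF1A (0.0139) and FOXA2 (0.0201). SOX9, ONECUT2, GATA4, GATA6 and PROX1 did not pass, with adjusted p from 0.289 to 0.914. Without the libraries of high mitochondrial share 7 of the 9 genes passed, against 48.5% of all genes, and SOX9, GATA4 and PROX1 were those added.

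ONECUT1 (ENSG00000169856.9, GRCh38 chromosome 15, 52755053 to 52791078, minus strand) was higher with the ISL1 label in every genotype. In WT it was at 14.2 and 11.8 CPM with BFP and at 22.5 and 26.9 CPM with ISL1. In ISL1-/- the BFP-labelled libraries had 22.6, 21.5 and 13.3 CPM and the ISL1-labelled ones 42.7, 42.1 and 32.6 CPM. In both genotypes the labels did not overlap. In PAX6-/- the values were 16.2, 23.2 and 11.8 CPM with BFP and 35.3, 40.1 and 29.6 CPM with ISL1. PDX1-/- had the lowest BFP-labelled values of all, 5.94, 8.13 and 7.04 CPM, and 39.9 and 17.6 CPM with ISL1. Again no library of one vector reached into the range of the other.

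The log2 fold change of ONECUT1 between the labels (ISL1 over BFP) was 0.92 (SE 0.37) in WT and 1.03 in ISL1-/- and PAX6-/- alike (SE 0.30 each). PDX1-/- had 2.03 (SE 0.33). Of these the change in PDX1-/- passed, at 4.09-fold (edgeR adjusted p = 0.0013), and it passed in each of the 21 fits that left out 1 library, with log2 values from 1.31 to 2.51. It was lost in the fit of the PDX1-/- groups alone (2.03, adjusted p = 0.24), which called 0 of 22180 genes. Without the libraries of high mitochondrial share the change passed in ISL1-/- (1.00, edgeR adjusted p = 0.0151) and PAX6-/- (1.13, adjusted p = 0.0153). In PDX1-/- it was 2.53, with 1 ISL1-labelled library left, as in each fit above that leaves out a library of that group. Deviations of same-numbered libraries correlated positively in PAX6-/- and in ISL1-/- (processing section). With the replicate number as a block the change in PAX6-/- was 1.06 (edgeR adjusted p = 0.0074), past the threshold, against 0.193 without it. The block also fits ISL1-labelled PDX1-/- replicate 4 by itself, since no other library has that number. Without that library and without a block the change in PAX6-/- was 1.009 (edgeR adjusted p = 0.0461). The difference of the vector effect between PDX1-/- and WT was 1.11 (SE 0.49) on the log2 scale and did not pass (adjusted p = 0.28). Averaged over the 4 genotypes, a comparison added after the data had been seen, ONECUT1 rose 2.39-fold (log2 1.25, SE 0.16, edgeR adjusted p = 0.000128). This mean passed in 21 of 21 fits that left out 1 library.

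HES1 (ENSG00000114315.4, GRCh38 chromosome 3, 194136148 to 194138732, plus strand) showed the same order of the labels. WT had 99.4 and 82.1 CPM with BFP and 108 and 143 CPM with ISL1. ISL1-/- had 138, 101.5 and 92.0 CPM with BFP and 185, 160.3 and 144 CPM with ISL1. In these genotypes the groups did not overlap, but the gap between them was smaller than the spread within a group. PAX6-/- had 69.5, 103 and 71.4 CPM with BFP and 106, 114 and 186 CPM with ISL1. In PDX1-/- the BFP-labelled libraries were close together at 51.3, 53.0 and 55.4 CPM, and the ISL1-labelled ones were at 117 and 246 CPM. The highest value in each of these knockouts came from the library of high mitochondrial share.

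The log2 fold change of HES1 between the labels was 0.47 (SE 0.34) for WT, 0.56 (SE 0.28) for ISL1-/-, 0.74 (SE 0.28) for PAX6-/- and 1.77 (SE 0.30) for PDX1-/-. The last of these passed, at 3.41-fold (edgeR adjusted p = 0.0020). Without ISL1-labelled PDX1-/- replicate 4 it was 1.14, and without both libraries of high mitochondrial share it was 1.17. Each of these fits leaves 1 library in that group, so no call is read from them. With the replicate number as a block the change was 1.102. Number 4 belongs to replicate 4 of this group alone, so the block too leaves 1 library there, and no call is read from it. The call was lost in the fit of the PDX1-/- groups alone (1.76, adjusted p = 0.24). The vector effect in PDX1-/- minus that in WT was 1.30 (SE 0.46, adjusted p = 0.17). The mean over the 4 genotypes was a rise of 0.88 (SE 0.15, 1.85-fold, adjusted p = 0.0013), which passed in 21 of 21 fits that left out 1 library.

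Counted over the 9 genes, 0 passed between the labels in WT, ISL1-/- and PAX6-/- and 2 in PDX1-/-. Over all genes tested 0.027% passed for WT, 0.382% for ISL1-/-, 0.355% for PAX6-/- and 12.5% for PDX1-/-. At an unadjusted p under 0.05, 1, 1, 2 and 3 of the 9 genes differed, in the same order of genotypes, and DESeq2 called 0, 0, 0 and 2. The median log2 fold change of the 9 genes was 0.24, 0.15, 0.18 and -0.11, against 0.00278, 0.03, 0.11 and 0.13 over all genes. For the mean over genotypes 2 of 9 passed, against 9.61% of all genes.

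Counted by overlap, 5 of the 9 genes were higher in every ISL1-labelled than in every BFP-labelled WT library, against 20.8% of all genes, and 4 were so for ISL1-/-, against 13.0%. For PAX6-/- there were 3, against 7.57%, and for PDX1-/- 2, against 16.3%. FOXA2 was lower without overlap in ISL1-/- and PDX1-/-, where 11.9% and 17.2% of all genes were, and no member was in WT or PAX6-/-, where 20.8% and 8.44% were. ONECUT1 and HES1 were higher in every ISL1-labelled than in every BFP-labelled library in all 4 genotypes, and 247 of 25884 genes (0.954%) did the same. No member was lower in all 4, as 0.695% of all genes were.

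Sums over marker lists differed between the same libraries. The summed CPM of 8 general endocrine genes was 45890 to 51750 in BFP-labelled and 24370 to 25620 in ISL1-labelled PDX1-/-, and it was lower with ISL1, without overlap, in WT and ISL1-/- too. In PAX6-/- the ranges of this sum overlapped, at 16310 to 28180 and 11130 to 27750 CPM. The sum of 5 enterochromaffin genes was lower with ISL1, without overlap, in all 4 genotypes, and in PDX1-/- it was 3583 to 4234 CPM with BFP and 1274 to 1420 CPM with ISL1. The 7 cell cycle genes summed to 212 to 265 CPM in BFP-labelled and 392 to 489 CPM in ISL1-labelled PDX1-/-, and to 514 to 719.8 against 761 to 974 CPM in ISL1-/-. In WT and PAX6-/- the ranges of the cell cycle sum overlapped. The endocrine progenitor genes summed to 4113 to 4463 CPM in BFP-labelled and 1651 to 2074 CPM in ISL1-labelled PDX1-/-, and were lower without overlap in ISL1-/- too.

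Other sums were higher with ISL1 in some or all genotypes. In PDX1-/- 12.5% of all genes passed between the labels, the share that stands beside each count of list genes given for it here. The 10 duct genes summed to 812 to 928 CPM in BFP-labelled and 1838 to 4397 CPM in ISL1-labelled PDX1-/-, and 6 of 10 rose there, with a median log2 fold change of 1.97. Among the 6 were the secreted SPP1 (3.65), the carbonic anhydrase CA2 (2.73), the bicarbonate carrier SLC4A4 (2.15) and the keratin KRT7 (2.12). In WT the duct sum was lower with ISL1, at 1789 to 1906 against 2088 to 2102 CPM, and in ISL1-/- and PAX6-/- its ranges overlapped. The 11 acinar genes were higher in sum without overlap in all 4 genotypes, at 124 to 283 against 24.3 to 32.9 CPM in PDX1-/-. There 3 of the 7 that could be tested rose, the protease genes PRSS1 (3.25) and CELA3A (2.85) and the gene GP2 (2.75). The 3 delta-cell genes were higher without overlap in each knockout, at 215 to 1341 against 38.6 to 66.7 CPM in PDX1-/-, where the hormone gene SST (3.53) and RBP4 (4.46) rose. The liver sum, at 5202 to 15860 against 2903 to 3493 CPM, and that of 8 stomach and gut genes, at 237 to 243 against 126 to 152 CPM, also separated the labels in PDX1-/-. In WT both sums were lower with ISL1, without overlap. There the liver sum was 7260 to 9059 against 12730 to 14790 CPM and the gut sum 141 to 147 against 159.6 to 179 CPM. In ISL1-/- both overlapped. In PAX6-/- the liver sum overlapped and the gut sum was higher with ISL1, without overlap. Beta-cell sums overlapped in PDX1-/-, at 373 to 25840 with ISL1 against 277 to 381 CPM. Alpha-cell sums did too, at 14330 to 120300 against 16690 to 21510 CPM. In ISL1-/- the alpha-cell sum was higher with ISL1, at 2810 to 6148 against 609 to 681 CPM. There 1 of the 5 genes, GCG (5.355), rose, against 0.382% of all genes called. In WT this sum was lower with ISL1, at 34920 to 39070 against 40290 to 54940 CPM, and in PAX6-/- its ranges overlapped. The highest value of both sums came from PDX1-/- replicate 4. Of 5 beta-cell genes 3 rose in PDX1-/- with both ISL1-labelled libraries in the fit, INS (6.47), IAPP (4.56) and G6PC2 (3.89). The beta-cell sum of replicate 2 was 373 CPM, within the BFP-labelled range, so the higher sum came from replicate 4 alone. Of 5 alpha-cell genes TTR rose (2.49) and IRX1 fell (-1.32). The part of these sums in the rise of ONECUT1 and HES1 was not tested.

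Among 24 other genes of the Notch pathway, all tested, none passed between the labels in WT, ISL1-/- or PAX6-/-, and 6 passed in PDX1-/-, where 12.5% of all genes did. There RBPJ rose by 0.68 (SE 0.20, edgeR adjusted p = 0.0324) and HEY2, a repressor related to HES1, by 1.05 (SE 0.24, adjusted p = 0.0114), both as log2 fold changes. The ligand DLL4, the Notch-binding DTX1, the repressor HEY1 and the fringe enzyme MFNG fell, by 1.95, 2.17, 1.61 and 1.45 on the log2 scale. For the mean over genotypes 6 of 24 passed, against 9.61% of all genes. The receptor gene NOTCH1 rose by 1.08 (SE 0.29, adjusted p = 0.0260) and RBPJ by 0.34, while DLL4, DTX1, HEY1 and MFNG fell by 1.19, 1.06, 0.67 and 0.85. HES1 and HEY1, both known targets of Notch, thus moved in opposite directions. The change of HEY1 was -0.41 in WT, -0.32 in ISL1-/- and -0.35 in PAX6-/-. In BFP-labelled PDX1-/- against WT 7 of 24 passed, against 9.68% of all genes. HEY1 (1.17), DTX1 (1.80), DLL4 (1.59), MFNG (1.49), HES6 and LFNG were higher in that comparison, and HEYL was lower. It shares the BFP-labelled PDX1-/- libraries with the vector effect. The median of the 24 genes for the mean over genotypes was 0.04, against 0.09 over all genes.

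**Figure D2:**
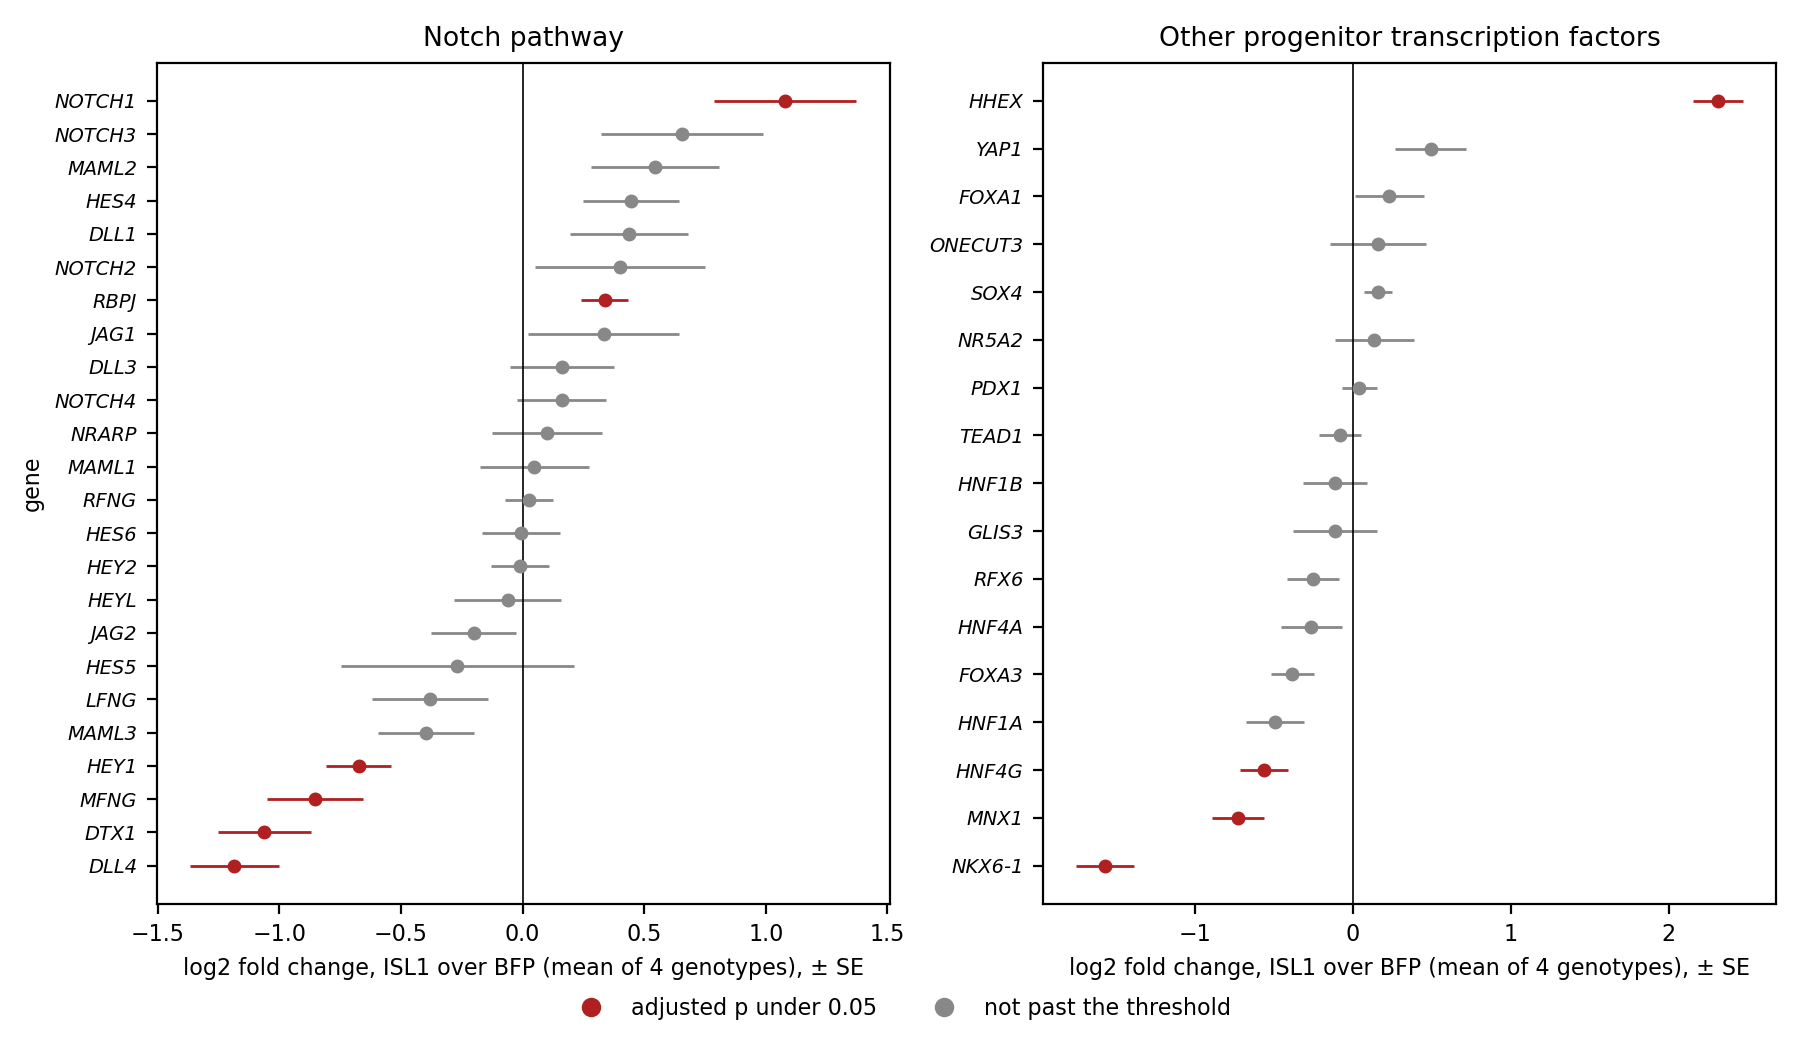
Points are the log2 fold change of ISL1-labelled over BFP-labelled libraries, averaged over the 4 genotypes, and bars are 1 SE, for the tested genes of the Notch pathway on the left and of other progenitor transcription factors on the right. Red points passed an adjusted p of 0.05: 2 Notch genes to the right of 0 and 4 to the left, and HHEX far to the right against NKX6-1, MNX1 and HNF4G to the left.

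FOXA2 (ENSG00000125798.15, GRCh38 chromosome 20, 22580998 to 22585455, minus strand) had its highest group means in BFP-labelled PDX1-/- and PAX6-/-. WT had 119 and 156 CPM with BFP and 124 and 108 CPM with ISL1, and ISL1-/- had 181, 150.4 and 177 CPM with BFP and 142, 133 and 140.4 CPM with ISL1. PAX6-/- had 276, 181 and 258 CPM with BFP and 187, 154 and 316 CPM with ISL1. PDX1-/- had 233, 277 and 236 CPM with BFP and 174 and 125 CPM with ISL1. BFP-labelled PAX6-/- and PDX1-/- libraries all lay above both BFP-labelled WT libraries. The differences from WT were 0.79 (SE 0.28, edgeR adjusted p = 0.11) and 0.85 (SE 0.28, adjusted p = 0.0612) on the log2 scale, and neither passed. Without the libraries of high mitochondrial share both passed, at 0.78 (adjusted p = 0.0021) and 0.83 (adjusted p = 0.0010). In each genotype the group mean of FOXA2 was lower with ISL1 than with BFP. The mean log2 difference of -0.35 (SE 0.13, edgeR adjusted p = 0.11) did not pass, and without those libraries it was -0.39 (adjusted p = 0.0038).

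PTF1A (ENSG00000168267.7, GRCh38 chromosome 10, 23192312 to 23194245, plus strand) was counted most in PAX6-/-. BFP-labelled WT libraries had 5 and 1 counts and BFP-labelled PAX6-/- libraries 58, 38 and 78 counts. BFP-labelled PDX1-/- libraries had 24, 14 and 26 counts and BFP-labelled ISL1-/- libraries 17, 11 and 18 counts. All BFP-labelled knockout libraries were thus above both BFP-labelled WT libraries. With ISL1 the counts were 11 and 6 in WT, 9, 2 and 12 in ISL1-/-, 24, 11 and 184 in PAX6-/-, and 13 and 10 in PDX1-/-. The 184 counts, or 3.86 CPM, came from the PAX6-/- library of high mitochondrial share, and the other libraries of that group had 0.47 and 0.17 CPM.

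Between BFP-labelled PAX6-/- and WT, PTF1A differed by 3.87 on the log2 scale (SE 1.16, edgeR adjusted p = 0.0596), just outside the threshold and resting on 6 counts in WT. It passed with DESeq2, without the filter on low counts, in the fit of these groups alone (adjusted p = 0.0043) and without the libraries of high mitochondrial share (adjusted p = 0.0011). Between ISL1-labelled PAX6-/- and WT the log2 difference of 3.05 (adjusted p = 0.12) was 0.81 without PAX6-/- replicate 3. Of the 11 acinar genes listed, 6 were under 1 CPM in every library, and the 11 summed to 20.9 to 283 CPM.

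SOX9 (ENSG00000125398.8, GRCh38 chromosome 17, 72121020 to 72126416, plus strand) and GATA4 (ENSG00000136574.19, GRCh38 chromosome 8, 11676959 to 11760002, plus strand) followed each other across the libraries. SOX9 had 71.3 and 53.8 CPM in WT with BFP and 91.5 and 81.4 CPM with ISL1. In ISL1-/- it had 99.2, 109.6 and 73.8 CPM with BFP and 167, 149 and 112 CPM with ISL1. In both genotypes the ISL1-labelled libraries were the higher ones without overlap. In PAX6-/- SOX9 had 72.9, 81.1 and 47.3 CPM with BFP and 114, 95.3 and 19.0 CPM with ISL1. In PDX1-/- it had 47.7, 50.5 and 65.4 CPM with BFP and 177 and 17.6 CPM with ISL1. The libraries of high mitochondrial share had the lowest SOX9 of all 21, and in PDX1-/- the ISL1-labelled libraries were the highest and the lowest of all.

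GATA4 had 385 and 352 CPM in WT with BFP and 374 and 381 CPM with ISL1. ISL1-/- had 552, 534 and 421 CPM with BFP and 733, 635 and 563 CPM with ISL1, the highest group. PAX6-/- had 398, 427 and 284 CPM with BFP and 576, 505 and 162 CPM with ISL1, and PDX1-/- had 281, 285 and 306 CPM with BFP and 535 and 147 CPM with ISL1. The labels did not separate in WT, where their ranges overlapped. In the other knockouts the ISL1-labelled ranges ran from below to above the BFP-labelled ones.

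With all libraries no comparison of SOX9 or GATA4 passed. The mean vector effect was 0.52 (SE 0.32, edgeR adjusted p = 0.32) for SOX9 and 0.20 (SE 0.22, adjusted p = 0.60) for GATA4. Without the libraries of high mitochondrial share these were 0.85 (adjusted p = 0.00011) and 0.45 (adjusted p = 0.0011), and 5 of the 9 genes passed, against 23.6% of all genes. Without ISL1-labelled PDX1-/- replicate 2 in place of those libraries the signs turned, to -0.10 and -0.11. GATA4 was also higher in ISL1-/- than in WT without the libraries of high mitochondrial share, by 0.46 with BFP (adjusted p = 0.0494) and 0.76 with ISL1 (adjusted p = 0.0040).

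GATA6 (ENSG00000141448.11, GRCh38 chromosome 18, 22169589 to 22202528, plus strand) had group means from 133 to 174 CPM, and the highest library had 2.36 times the value of the lowest. WT had 185 and 133 CPM with BFP and 159.8 and 177 CPM with ISL1, ISL1-/- had 189, 165 and 150.0 CPM with BFP and 201, 164 and 141 CPM with ISL1. PAX6-/- had 158, 168 and 148 CPM with BFP and 175, 162 and 103 CPM with ISL1, and PDX1-/- had 179, 172 and 172 CPM with BFP and 182 and 85.3 CPM with ISL1. All groups overlapped with the next in order of their means, and no comparison passed. GATA6 shares 94 exon bases with the antisense gene GATA6-AS1, which had 215 to 1923 counts. The strand setting of the counting is not given in the sources used here, so reads from the shared bases cannot be assigned to either.

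ONECUT2 (ENSG00000119547.6, GRCh38 chromosome 18, 57435374 to 57491298, plus strand) did not pass in any comparison, unlike its relative ONECUT1. It had 116 and 127 CPM in WT with BFP and 142 and 145 CPM with ISL1, and 178, 139.8 and 133 CPM against 182, 168 and 152 CPM in ISL1-/-. In PAX6-/- it had 133, 139 and 89.4 CPM with BFP and 158, 150.1 and 145 CPM with ISL1, and in PDX1-/- 119, 136 and 139 CPM with BFP and 124 and 119 CPM with ISL1. The labels were apart in WT and PAX6-/- and overlapped in ISL1-/- and PDX1-/-. The mean vector effect was 0.15 (SE 0.10, edgeR adjusted p = 0.34). The difference between ONECUT1 and ONECUT2 was not itself tested.

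PROX1 (ENSG00000117707.17, GRCh38 chromosome 1, 213983181 to 214041510, plus strand) was highest in BFP-labelled PAX6-/-, at 218, 160.0 and 161 CPM, and PDX1-/-, at 159, 153 and 174 CPM. BFP-labelled WT had 102 and 121 CPM and BFP-labelled ISL1-/- had 111, 122 and 109 CPM, and all PAX6-/- and PDX1-/- libraries were above these. With ISL1, PROX1 had 138 and 98.8 CPM in WT, 126, 128 and 117 CPM in ISL1-/-, 186, 150.2 and 106 CPM in PAX6-/- and 176 and 35.4 CPM in PDX1-/-. The differences from WT with BFP were 0.69 (SE 0.42, edgeR adjusted p = 0.41) in PAX6-/- and 0.54 (SE 0.42, adjusted p = 0.51) in PDX1-/-. Without the libraries of high mitochondrial share they were 0.68 (adjusted p = 0.0053) and 0.52 (adjusted p = 0.0226). The antisense gene PROX1-AS1, with 38 to 230 counts, shares 163 exon bases with PROX1.

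The libraries of high mitochondrial share were compared with the median of the other 19. PAX6-/- replicate 3 had log2 ratios of -2.10 for SOX9, -1.38 for GATA4 and -0.71 for GATA6, and of 0.86 for HES1, 0.86 for FOXA2 and 4.06 for PTF1A. PDX1-/- replicate 4 had -2.21 for SOX9, -1.52 for GATA4, -0.98 for GATA6, -1.97 for PROX1 and 1.26 for HES1. SOX9, GATA4 and GATA6 were below the range of the other libraries in both, while ONECUT1 and ONECUT2 were within it. Their sums over 10 duct genes were 3870 and 4397 CPM, above the 812 to 2102 CPM of the other libraries, so SOX9 and the duct genes did not go together there. In PDX1-/- replicate 4 the sum of 5 alpha-cell genes was 120300 CPM, against at most 54940 CPM in the other 19 libraries.

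**Figure D3:**
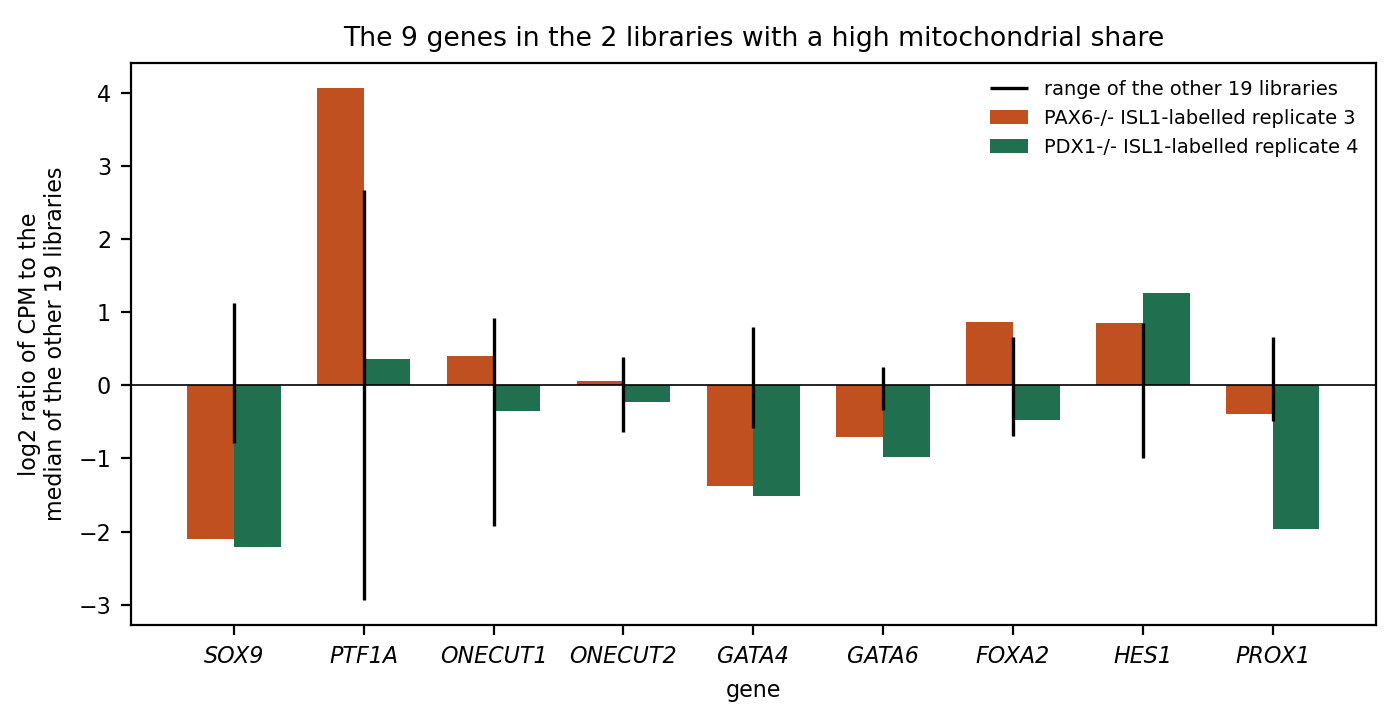
Bars are the log2 ratio of CPM in each of the 2 libraries of high mitochondrial share to the median of the other 19 libraries, by gene, and black lines span the other 19. Bars for SOX9, GATA4 and GATA6 reach below the lines in both libraries, and that for PROX1 only in PDX1-/- replicate 4.

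In the comparisons of each knockout with WT, which share their WT libraries, 0 of the 9 genes passed with either label. The shares of all genes that passed were 5.59% for ISL1-/-, 5.51% for PAX6-/- and 9.68% for PDX1-/- with BFP, and 3.72%, 3.56% and 0.634% with ISL1. At an unadjusted p under 0.05 edgeR gave 0, 2 and 4 genes with BFP and 0, 2 and 0 with ISL1, and DESeq2 called 0, 1 and 1 with BFP and 0, 2 and 0 with ISL1. In BFP-labelled PDX1-/- ONECUT1 differed from WT by -0.89 (SE 0.33, adjusted p = 0.10) and HES1 by -0.77 (SE 0.30, adjusted p = 0.13), and in both genes all 3 PDX1-/- libraries were below both WT libraries. Without the libraries of high mitochondrial share both passed, at -0.91 (adjusted p = 0.0133) and -0.79 (adjusted p = 0.0043), among 5 of 9 genes against 27.6% of all genes. In ISL1-/- with BFP all 9 fold changes from WT were above 0, with a median of 0.31 against 0.02 over all genes, and the values of 4 genes, SOX9, PTF1A, ONECUT2 and GATA4, did not overlap with WT. Of all genes, 26.0% were higher in every such library.

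Between knockouts with BFP, ONECUT1 and HES1 were lower in PDX1-/- than in ISL1-/-. ONECUT1 was higher in ISL1-/- by 1.44 (SE 0.30, 2.72-fold, edgeR adjusted p = 0.0092) and HES1 by 1.05 (SE 0.28, 2.08-fold, adjusted p = 0.0349), so 2 of 9 genes passed, against 5.07% of all genes. ONECUT1 was also higher in PAX6-/- than in PDX1-/-, by 1.28 (SE 0.30, 2.43-fold, adjusted p = 0.0256), as 1 of 9 genes, against 3.04% of all genes. Between ISL1-/- and PAX6-/- 0 of 9 passed with edgeR, against 2.46% of all genes, with 1 at an unadjusted p under 0.05 and 0 with DESeq2. These calls depended on single libraries. ONECUT1 in ISL1-/- against PDX1-/- was lost without replicate 1 of ISL1-/- (adjusted p = 0.0542) or of PDX1-/- (0.0501), and HES1 without ISL1-/- replicate 1 or 2 or any PDX1-/- replicate (adjusted p up to 0.18). ONECUT1 in PAX6-/- against PDX1-/- was lost without PAX6-/- replicate 1 or 2 or any PDX1-/- replicate (adjusted p up to 0.17).

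**Figure D4:**
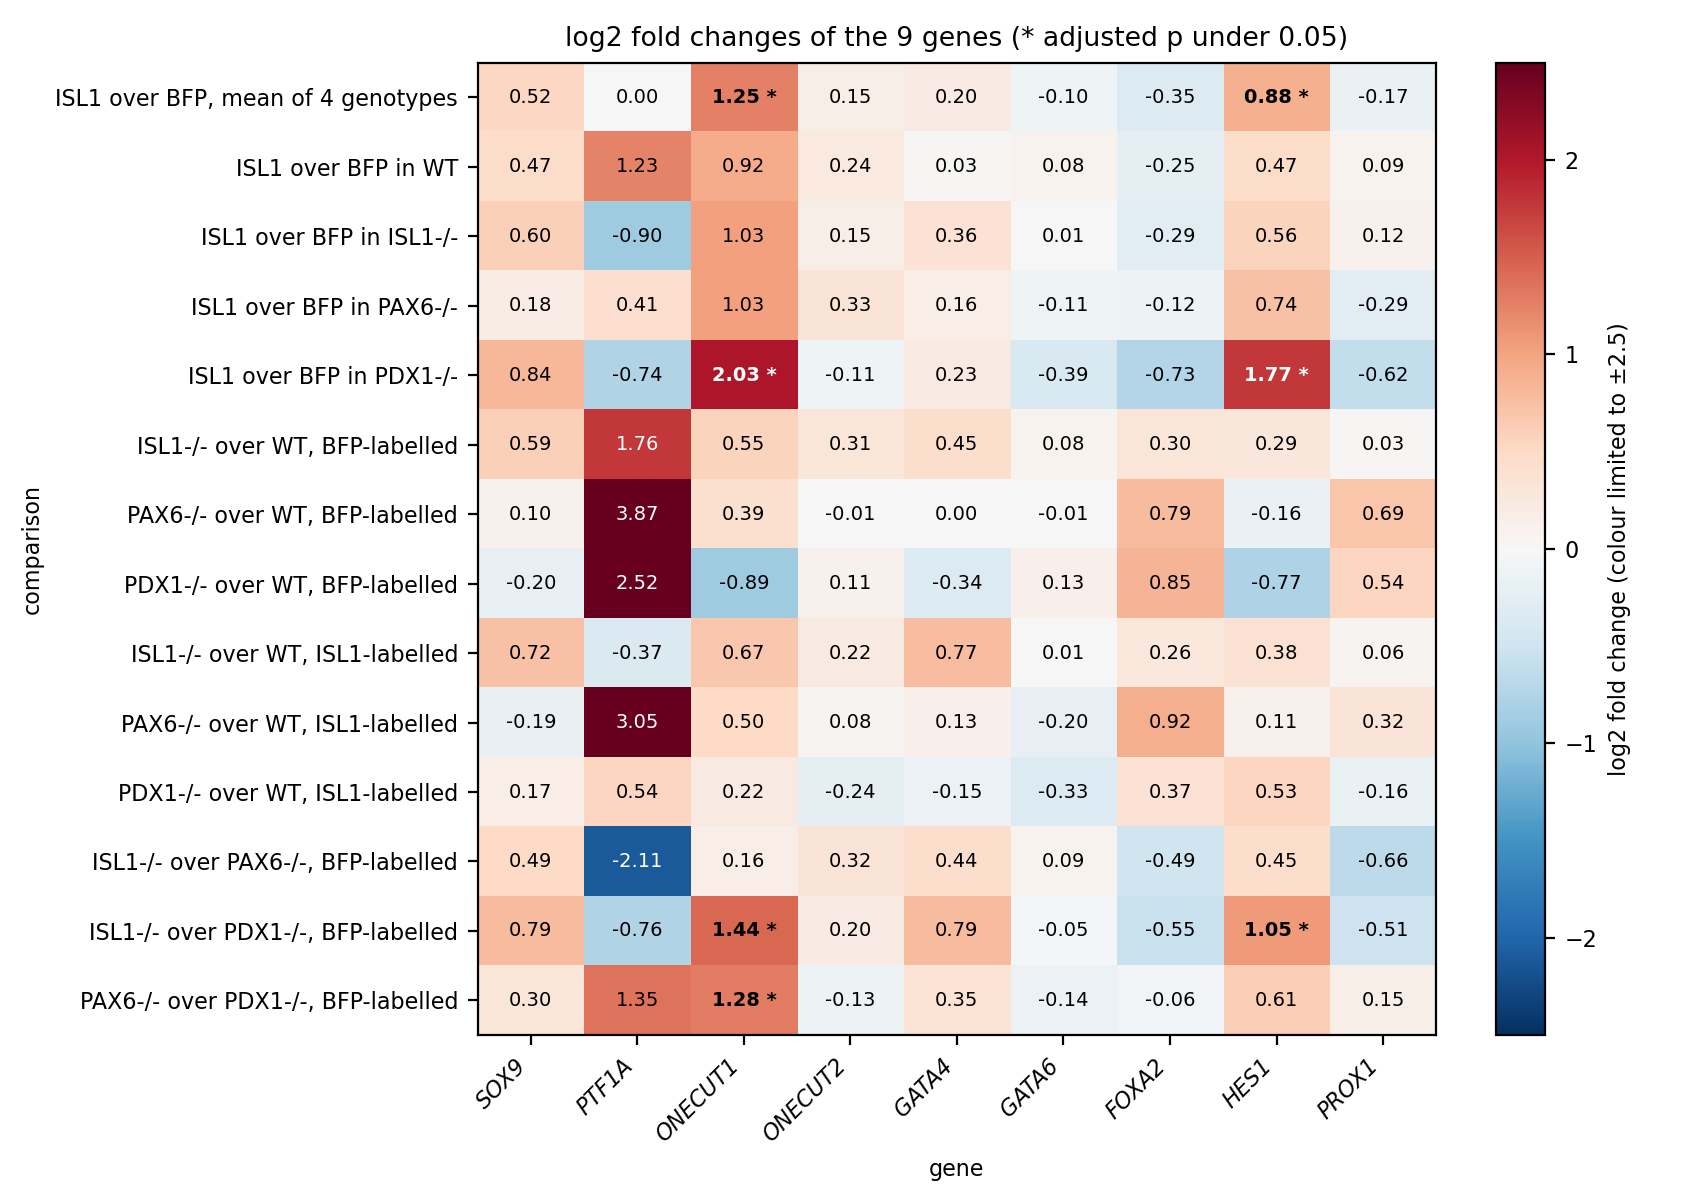
Rows are comparisons, columns are the 9 genes, and numbers and colours are log2 fold changes, with a star where the adjusted p was under 0.05. Stars stand only in the columns of ONECUT1 and HES1: in the mean vector effect, in the vector effect in PDX1-/-, and between BFP-labelled ISL1-/- or PAX6-/- and PDX1-/-.

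For the difference of the vector effect between a knockout and WT, 0 of the 9 genes passed in edgeR. Over all genes 0.00386% passed for ISL1-/-, 0.0% for PAX6-/- and 1.19% for PDX1-/-. At an unadjusted p under 0.05 the counts for the 9 genes were 0, 0 and 2, and DESeq2 called 0 in each. The 2 genes were ONECUT1 and HES1 in PDX1-/-.

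Across libraries some of the 9 genes varied together and others in opposite directions. The values are Pearson's r of log2 CPM over all 21 libraries and over the 19 without high mitochondrial share. They are descriptions only, since the libraries share genotypes and labels. SOX9 and GATA4 had r of 0.97 over 21 and 0.92 over 19 libraries, and ONECUT1 and HES1 had 0.77 and 0.90. SOX9 and HES1 had 0.0056 over 21 and 0.82 over 19 libraries, so their likeness is visible only without the libraries in which HES1 was high and SOX9 low. FOXA2 went with PTF1A (0.77 and 0.73) and, over 19 libraries, with PROX1 (0.72), and against HES1 (-0.53 and -0.77).

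Of 10824 genes with a mean of at least 10 CPM, the gene most like ONECUT1 over 21 libraries was ATF7IP2 (r = 0.96), followed by SFRP5 (0.92), a secreted antagonist of WNT. The gene most like HES1 was BCL2L12 (0.96), followed by the centromere gene CENPH (0.95). FOXA2 was most like NKX2-2 (0.96), an endocrine transcription factor. GATA4 was most like GEMIN4 (0.97), SOX9 like the collagen gene COL4A5 (0.95), PROX1 like PELI2 (0.95) and GATA6 like INPP5B (0.94). For GATA6 and INPP5B r was 0.71 over the 19 libraries. ONECUT2 was most like POU2F1 (0.89).

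Of 18 other transcription factors of pancreatic progenitors, 17 could be tested, and RBPJL, the partner of PTF1A in acinar cells, was under 1 CPM in every library. For the mean vector effect 4 of 17 passed, against 9.61% of all genes. HHEX, a factor of foregut endoderm and of delta cells, rose by 2.31 (SE 0.16, edgeR adjusted p = 4.131e-07). NKX6-1, a factor of progenitors and beta cells, fell by 1.57, MNX1 by 0.73 and HNF4G by 0.56 on the log2 scale. HHEX passed within ISL1-/-, PAX6-/- and PDX1-/- (2.64, 2.13 and 2.63) and NKX6-1 within PAX6-/- and PDX1-/- (-1.86 and -2.76). In BFP-labelled PDX1-/- against WT the directions were opposite, with NKX6-1 (2.38) and MNX1 (2.27) higher and HHEX (-2.28) lower. BFP-labelled ISL1-/- gave the same calls against WT, at 1.80, 1.82 and -2.42. In BFP-labelled PAX6-/- only HHEX of these genes passed (-1.85). These comparisons share their BFP-labelled libraries with the vector effects, and they share the WT libraries with each other. The median of the 17 genes was -0.11 for the mean vector effect, against 0.09 over all genes.

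The endocrine progenitor list holds NEUROG3 and 7 genes that act with or after it. Of these 8 genes, 3 fell between the labels in PDX1-/-, INSM1 by 1.97, MYT1 by 1.79 and NKX2-2 by 1.40 on the log2 scale, against 12.5% of all genes called. INSM1 (-1.005) and MYT1 (-0.94) also fell in the mean over genotypes. In BFP-labelled PAX6-/- against WT 4 of 8 rose, against 5.51% of all genes: NEUROG3 (2.83), NKX2-2 (1.95), ST18 (1.49) and PAX4 (1.13). In BFP-labelled PDX1-/- against WT 4 of 8 rose, against 9.68% of all genes: NKX2-2 (1.97), INSM1 (1.91), MYT1 (1.57) and RFX3 (0.85). These comparisons share their WT libraries, and none of the 8 genes passed in BFP-labelled ISL1-/- against WT.

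Sums over the markers of other cells ranged widely. The summed CPM over libraries was 1.24 to 37.3 for 5 endothelial genes, with PECAM1 and VWF under 1 CPM throughout, and 3.92 to 20.5 for 4 pluripotency genes, with POU5F1 and NANOG under 1 CPM. The 9 mesenchyme genes summed to 93.4 to 2017 CPM, highest in ISL1-labelled WT. The 5 liver genes summed to 2903 to 15860 CPM, highest in PDX1-/- replicate 4. The 8 general endocrine genes, such as those of the granins, summed to 11130 to 51750 CPM in these cells, which the labels give as islet cells.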

How the data were processed

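The authors deposited raw read counts per gene for 21 libraries, from SMART-Seq v4 libraries run on a NovaSeq X (labels' protocols), with STAR 2.7.11b, featureCounts 2.1.1 and GRCh38 named in the submitters' processing notes. The annotation release, the strand setting and the treatment of multi-mapping reads are not given in the sources used here. The ANK2 entry, broken over 3 lines, was left out, and 62699 genes remained.

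Counts were scaled by TMM and tested in edgeR 4.0.16 (R 4.3.3, quasi-likelihood F test, 1 model of all 21 libraries, no block). The filter (minimum 10 counts, total 15, by group) kept 25884 genes. The Benjamini-Hochberg adjustment ran over all tested genes of a comparison, with a threshold of 0.05. The common biological coefficient of variation was 0.334, and SE is the log2 fold change over the square root of F. On counts simulated with a dispersion of 0.04 for BFP-labelled PAX6-/- against WT (25884 genes), it recovered 30 of 50 genes raised 2-fold and 50 of 50 raised 4-fold, with 9 false calls. The simulated spread is smaller than that of the data, and no outlying libraries were simulated. These shares therefore do not give the power of the tests here. Replicates are biological per the labels' design text, and nothing names separate clones. Alternatives were scaling by relative log expression (RLE) in edgeR, the test of DESeq2 1.42.0, no filter, the replicate block, only the groups compared and each library left out.

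Deviations of same-numbered libraries correlated positively in PAX6-/- (3 pairs, r from 0.16 to 0.39) and in ISL1-/- (3 pairs, r from 0.099 to 0.29). The single pairs of PDX1-/- and WT had r of -0.21 and -0.039. Pairs with different numbers, taken over all groups, had r from -0.58 to 0.58. In a group of 2 libraries the deviations from the group mean mirror each other. Each r with such a library has a counterpart of equal size and opposite sign, so this range is no baseline. Whether the numbers pair the libraries is not settled by these values. The 9 genes and the lists of 135 genes in 16 lists were chosen with earlier results of these data known. All 9 genes are reported. Of the lists, sums or counts are given and examples among the genes past the threshold, those with the largest changes. For likeness, the genes with the highest r are named, and the result for PTF1A is not reported here.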

Additional observations from a re-analysis of the deposited data

How the results depend on the processing

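ISL1-labelled PDX1-/- consists of 2 libraries that differ widely (replicates 2 and 4). The fold changes of several genes in comparisons with this group depend on which of them is kept. With either left out, the group holds 1 library. Leaving out 1 library at a time, the log2 vector effect in PDX1-/- ran from -1.65 (without replicate 2) to 1.702 (without replicate 4) for SOX9, from -0.99 to 0.88 for GATA4, from -1.04 to 0.061 for GATA6 and from -2.21 to 0.12 for PROX1. Against ISL1-labelled WT the ranges were -2.31 to 1.04 for SOX9, -1.37 to 0.51 for GATA4, -0.99 to 0.12 for GATA6, -0.092 to 0.96 for HES1 and -1.76 to 0.58 for PROX1, which was also above 0, at 0.09, without WT replicate 1. The PROX1 vector effect in PDX1-/- minus that in WT ran from -2.30 to 0.042. The mean vector effect over genotypes ran from -0.10 to 0.73 for SOX9 and from -0.11 to 0.35 for GATA4. No sign of SOX9, GATA4, GATA6 or PROX1 can therefore be read from comparisons with that group, nor that of HES1 against ISL1-labelled WT. The vector effect in PDX1-/- of ONECUT1 and HES1 kept its sign with either library left out.

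Leaving out 1 library, the number of the 9 genes past the threshold stayed at 0 for the vector effect in WT, for ISL1-/- against WT with either label and for the difference of vector effects between WT and ISL1-/- or PAX6-/-. It ran from 0 to 1 for the vector effect in ISL1-/- and in PAX6-/-, from 1 to 5 for that in PDX1-/-, and from 0 to 3 for PDX1-/- minus WT. Against WT it ran from 0 to 2 for PAX6-/- with either label, from 0 to 3 for BFP-labelled and from 0 to 5 for ISL1-labelled PDX1-/-. With BFP it ran from 0 to 1 for ISL1-/- against PAX6-/-, from 0 to 2 for ISL1-/- against PDX1-/- and from 0 to 1 for PAX6-/- against PDX1-/-. It ran from 3 to 7 for any difference and from 2 to 4 for the mean vector effect. The count of 5 for the vector effect in PDX1-/-, those of 5 and 3 in the other comparisons of ISL1-labelled PDX1-/- and those of 7 and 4 all came without ISL1-labelled PDX1-/- replicate 2.

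Without both libraries of high mitochondrial share, a choice made after seeing the data, the vector effect gave 1 gene in ISL1-/- and 1 in PAX6-/-, against 4.93% and 4.97% of all genes. This leaves 1 library in ISL1-labelled PDX1-/-, so no count is given for comparisons with that group. Against WT with BFP there were 1, 3 and 5 genes for ISL1-/-, PAX6-/- and PDX1-/-, against 23.5%, 23.5% and 27.6%. With ISL1 there were 2 for ISL1-/-, against 19.5%. Between knockouts there were 2 (ISL1-/- against PAX6-/-), 6 (ISL1-/- against PDX1-/-) and 2 (PAX6-/- against PDX1-/-), against 8.74%, 21.7% and 16.3%. Any difference gave 7 and the mean 5, against 48.5% and 23.6%. For PDX1-/- the signs of GATA6 (0.085) and PROX1 (0.15) turned in the vector effect, of GATA4 (0.51), GATA6 (0.12), HES1 (-0.089) and PROX1 (0.58) against WT with ISL1, and of GATA6 (0.0057) and PROX1 (0.060) in the difference of vector effects. The mean for PROX1 became 0.052. Over all 9 genes and comparisons 23 of 153 signs turned, and 0 of these values passed in either fit. Others among them were PTF1A in the vector effect in PAX6-/- (-1.84) and in the mean (-0.61), GATA6 in the mean (0.054), and SOX9 (0.25) and HES1 (-0.21) in ISL1-labelled PAX6-/- against WT.

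Fitted on only the groups compared, the vector effect gave 1 gene in ISL1-/-, against 6.51% of all genes, and 0 in PDX1-/-, where 0 of 22180 genes passed and ONECUT1 (2.03, adjusted p = 0.24) and HES1 (1.76, adjusted p = 0.24) were lost. With BFP this fit gave 2, 3 and 6 genes for ISL1-/-, PAX6-/- and PDX1-/- against WT, 2 for ISL1-/- against PAX6-/-, 6 for ISL1-/- against PDX1-/- and 2 for PAX6-/- against PDX1-/-, and with ISL1 3 for ISL1-/- against WT. The shares of all genes were 25.4%, 21.8%, 30.6%, 7.26%, 24.3%, 14.2% and 24.6%, in the same order. DESeq2 gave 1 gene for PAX6-/- and 1 for PDX1-/- against WT with BFP and 2 for PAX6-/- with ISL1, against 9.42%, 13.5% and 6.82%. Without the filter on low counts PAX6-/- against WT gave 1 with either label, against 2.94% with BFP and 2.14% with ISL1. Scaling by RLE in edgeR moved none of the counts by over 1.5 times.

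The replicate number was also tried as a block. Number 4 belongs only to ISL1-labelled PDX1-/- replicate 4, so the block fits that library by itself. The group then rests on 1 library, and no count is given for comparisons with it. Block values for this group cannot be told apart from the effect of leaving replicate 4 out. Same-numbered libraries had r above 0 in each pair of PAX6-/- and of ISL1-/-. Over all groups they had a median r of 0.057 in 57 pairs, against -0.0276 in 135 pairs with different numbers. The block gave 1 gene each for the vector effect in ISL1-/- and PAX6-/-. It gave 2 and 3 for BFP-labelled PAX6-/- and PDX1-/- against WT and 1 for ISL1-labelled ISL1-/- against WT. The shares of all genes were 1.87%, 2.23%, 13.0%, 17.7% and 9.36%, in this order. The vector effect of HES1 in PDX1-/- was 1.102 with the block. In the block the signs turned for PROX1 in the vector effect in PDX1-/- (0.16), in the difference to WT (0.11) and in the mean (0.0071), for GATA6 in the difference (0.021), and against WT with ISL1 for GATA4 (0.52), GATA6 (0.15), HES1 (-0.12) and PROX1 (0.66). Numbers from the sample titles, which differ for 3 libraries and were tried after seeing the data, gave 1 gene for BFP-labelled PAX6-/- against WT, against 4.88% of all genes, and -0.049 for GATA4 in the vector effect in PDX1-/-.

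Besides the counts, 55 fold changes were followed: those called under any setting and those printed. The cause of these changes was not tested. In fits that leave libraries out, their smaller number cannot be told apart from which libraries were removed. Depth limits PTF1A, with 1 to 184 counts per library, and groups of 2 or 3 libraries limit the precision of all 9 genes.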
